A study of Arabidopsis thaliana with 9 samples.

Results

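Chloroplasts and mitochondria keep small genomes of their own, and their transcripts were followed here in Arabidopsis plants with a mutated HDA6, a nuclear enzyme that removes acetyl groups from histones. The ATH1 array carries many organelle probe sets in one numbered block, so the members were taken by number alone, as the run of 150 consecutive leading numbers that starts 1 before the set for nad4L and ends with the set for psbK. They were 150 of the 22746 probe sets tested. Of these, 77 read plastid genes (76 different symbols, with rps12 read by 2 sets), 13 read mitochondrial genes, 15 were annotated to nuclear genes of chromosome 2 and 45 were unnamed here. By annotation, the description of the block as organelle transcripts therefore held for 90 of the 105 annotated members. Of the nuclear members, the 5 at AT2G07 are numbered among the mitochondrial names. Whether they also read mitochondrial transcripts was not tested. Names came from the platform annotation, 92 of them matched by gene ID and 13 by mitochondrial symbol to the RefSeq annotation of TAIR10.1. The files name no genome build, so no coordinates are given, and no probe or gene sequence was used here.

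RNA came from whole Col-0 plants kept on Murashige and Skoog plates under constant light at 21 °C until day 35, with 3 arrays in each of 3 groups. The null mutant and the amino acid substitution mutant both carry an EMS-induced mutation in HDA6, and the labels give rts1-1 as the source of both, so whether they are separate lines was not settled. The double transformant is of the Columbia background with no HDA6 mutation named, and what it was transformed with is not named in the labels. All 9 arrays shared medium, light and temperature, while humidity at night was 35% for double transformant 1, against 53% elsewhere. Whether replicate arrays stand for independently grown plants was not stated, so p-values here speak of the spread among these arrays only, part of which may be technical. The number of arrays limits the precision. HDA6 itself was among the unnamed probe sets, so its level was not analysed here.

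As background, the plastid genome encodes core subunits of the photosystems, the cytochrome b6f complex, the ATP synthase and the NDH complex, the large subunit of Rubisco, and part of the machinery that transcribes and translates them. A bacterial-type RNA polymerase built from the rpo gene products and phage-type polymerases encoded in the nucleus share the transcription of plastid genes, most of which are transcribed in groups and then cut, spliced and edited. Plant mitochondrial genomes encode subunits of the respiratory chain, factors of cytochrome c maturation and ribosomal proteins. In both organelles poly(A) tails are added mainly to RNA that is being degraded, unlike nuclear messenger RNA, so a signal from the 3' IVT Express kit used here, which primes on poly(A), need not follow the pool of functional organelle RNA. Arabidopsis chromosome 2 also holds a large insertion of mitochondrial DNA. The suffix _s_at, given to probe sets that can match more than 1 transcript, was carried by 5 of the 13 mitochondrial and 6 of the 77 plastid members, and 8 members had 2 entries of 1 symbol, as genes of the plastid inverted repeat do. Copies read by 1 probe set cannot be told apart.

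Array quality differed within groups. Null mutant 3 and double transformant 3 correlated least with the rest on average (0.9445 and 0.9458, against 0.9541 to 0.9668) and had the highest 3' to 5' signal ratio of the GAPDH control (1.95 and 2.15, against 1.38 to 1.82). For the ubiquitin control the ratio was 3.57 and 3.21 on these arrays and lay between 3.19 and 3.75 on the others. The titles of null mutant 1, substitution mutant 3 and double transformant 1 end in rpt, and the labels do not say what was repeated.

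The first comparison asked which organelle transcripts differed when HDA6 was null. No plastid or mitochondrial member was called in the null mutant against the double transformant (limma across all probe sets, Benjamini-Hochberg adjusted p under 0.05), while 1 member, the nuclear pseudogene AT2G26630, was higher. Over all 22746 probe sets 0.761% were called, 0.659% as higher. At an unadjusted p under 0.05 there were 4 of the 90 plastid and mitochondrial members, against 11.1% of all probe sets. In 4 of the 90 (4.44%) the 3 null mutant arrays lay wholly above or below the 3 double transformant arrays, against 13.7% of all probe sets. The substitution mutant gave the same counts of calls, 0 of 90 and 1 of 150, with 0.747% of all probe sets called (0.620% as higher), 2 of 90 under an unadjusted p of 0.05 (11.8% of all) and 5 of 90 (5.56%) without overlap (19.2% of all). The smallest adjusted p among the 90 was 0.226 for the null mutant and 0.335 for the substitution mutant.

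Small differences in most plastid transcripts were bounded by the data, since a p that misses the threshold says nothing of equality. For 71 of the 77 plastid members the 95% interval of the null mutant difference lay within 2-fold either way (between -1 and 1 on the log2 scale), and for 68 that of the substitution mutant did. Among all probe sets 58.9% and 58.7% had such an interval. Among the 557 non-members with a mean signal of 1000 or more, a level that 46 plastid members reached, 91.9% and 93.5% did. The 77 plastid members include dimmer ones, so these sets are not alike in brightness. The median SE was 0.244 for the plastid members and 0.161 for the 557, so plastid differences were measured less precisely. Plastid differences ran from -0.52 to 0.35 with a median of -0.00652 in the null mutant, and from -0.33 to 1.00 with a median of -0.0244 in the substitution mutant. The medians over all probe sets were 0.0191 and -0.00310. The sign of both plastid medians depended on single arrays. With null mutant 3 and double transformant 3 left out they were 0.122 and 0.0938, and with the 3 arrays marked rpt left out they were -0.214 and -0.0899.

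**Figure D1:**
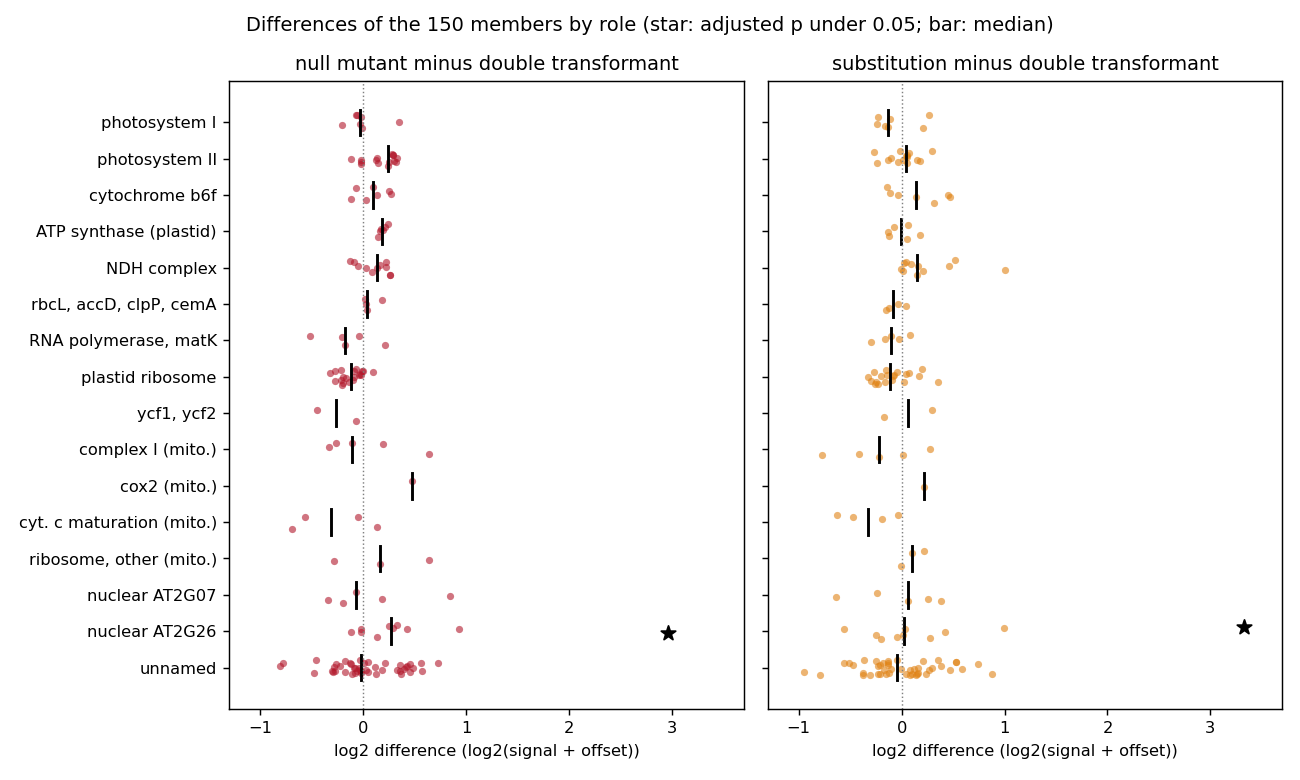
Log2 differences (horizontal axis, on the log2(signal + offset) scale) of the 150 members by role, for the null mutant (left) and the substitution mutant (right) minus the double transformant; each point is a probe set, each black bar the median of its role and each star a call. The organelle roles lie around 0 with no star, and AT2G26630 lies alone at 2.96 and 3.33.

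Photosystem I passes electrons to ferredoxin, and psaC encodes the subunit that holds its terminal iron-sulphur clusters. The psaC signal was 774, 706 and 690.3 on the null mutant arrays and 633, 637 and 795 on the substitution mutant arrays, against 584, 580.3 and 540.3 in the double transformant. Every mutant array lay above every double transformant array. Groups did not overlap in 13.7% of all probe sets for the null mutant and in 19.2% for the substitution mutant. How many probe sets did so for both mutants, as psaC did, was not counted. The log2 difference was 0.35 ± 0.12 (SE, limma adjusted p = 0.286) in the null mutant and 0.27 ± 0.12 (adjusted p = 0.410) in the substitution mutant, so neither was called. The reaction centre genes psaA and psaB behaved otherwise: psaB had 8697, 4708 and 7902 for the null mutant, 8031, 5185 and 5619.5 for the substitution mutant, and 5662, 6611 and 8761 in the double transformant. These groups overlapped widely, and the psaB differences were -0.01 ± 0.30 and -0.16 ± 0.30 (SE). The other members of this role, psaI, psaJ and the assembly factors ycf3 and ycf4, had overlapping groups, and the 7 members together had medians of -0.0346 and -0.128. With 1 array left out these ran from -0.182 (without null mutant 1) to 0.215 (without null mutant 2) and from -0.312 (without substitution mutant 1) to 0.0103 (without double transformant 3).

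Photosystem II splits water, and its D1 protein, the product of psbA, is the subunit that turns over fastest in light. The psbA signal was 6846, 3469 and 5370.2 on the null mutant arrays and 5388, 2937 and 4862 on the substitution mutant arrays, against 4465, 3320.4 and 4685 in the double transformant. The groups overlapped: the substitution mutant arrays spanned all 3 double transformant values, while double transformant 2 lay below every null mutant array. The differences were 0.29 ± 0.30 and 0.05 ± 0.30 (SE). Of the 15 photosystem II members 11 had a positive difference in the null mutant, with a median of 0.236, and 9 had one in the substitution mutant, with a median of 0.0448, which became -0.0106 when arrays were centred on their medians. The null mutant median was 0.00718 when null mutant 1 was left out (8 positive), 0.457 when null mutant 2 was (14 positive) and -0.0721 when the arrays marked rpt were, and the substitution mutant median ran from -0.106 to 0.129 with 1 array left out. Among all probe sets 52.5% and 49.6% of the differences were positive, and among non-members with a mean signal of 1000 or more 59.6% and 58.0%. The small-subunit genes psbI (0.32 ± 0.23), psbN (0.33 ± 0.50) and psbH (0.30 ± 0.21) had the highest differences of the role in the null mutant (SE after each), with adjusted p-values of 0.672, 0.865 and 0.646. In the substitution mutant the lowest value was that of psbJ, at -0.27 ± 0.14 (SE, adjusted p = 0.519).

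The cytochrome b6f complex links the photosystems. Its petB transcript had 9521, 4264 and 8754 for the null mutant, 7374, 5011 and 5215 for the substitution mutant, and 4066, 6244 and 8308 in the double transformant. The lowest and highest arrays differed by more within the null mutant than the group means did. The single-helix subunit petG gave 159, 268 and 64.1 for the null mutant, 134, 197 and 328 for the substitution mutant, and 291, 90.7 and 119 in the double transformant, with intervals from -1.19 to 1.05 and from -0.65 to 1.59. For petG the arrays thus leave a 2-fold difference in either direction within the interval in the null mutant. The 7 members of this role, which include the cytochrome assembly gene ccsA, had medians of 0.104 and 0.139, which ran from -0.0448 (without null mutant 1) to 0.267 (without null mutant 2) and from 0.0350 (without substitution mutant 1) to 0.221 (without substitution mutant 2) with 1 array left out.

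The plastid ATP synthase makes ATP from the proton gradient, and all 6 of its members had a positive difference in the null mutant, between 0.14 and 0.24, with a median of 0.180. The count was 3 of 6 after quantile normalization, and none of the 6 was called. It was 4 of 6 without null mutant 1, null mutant 3 or double transformant 1 (lowest median 0.0521), and 2 of 6 without the arrays marked rpt (median -0.0951), while the median was 0.447 without null mutant 2. The beta subunit gene atpB had 12940.5, 6214 and 12576 on the null mutant arrays and 10889, 7298 and 7299 on the substitution mutant arrays, against 6951, 8955 and 12262 in the double transformant. Each group held both low and high atpB arrays. In the substitution mutant 3 of the 6 differences were positive, with a median of -0.00978, or -0.122 without double transformant 1 and 0.0943 without double transformant 3.

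The NDH complex carries electrons back from ferredoxin around photosystem I. Its 11 members had medians of 0.132 in the null mutant (8 positive) and 0.152 in the substitution mutant (10 positive, or 7 of 11 when arrays were centred on their medians). Without null mutant 1 the null mutant median was -0.0128, without double transformant 1 it was -0.0109, and without null mutant 2 it was 0.275. The substitution mutant median ran from 0.0787 (without double transformant 2) to 0.248 (without double transformant 1). The widest plastid difference in the substitution mutant was that of ndhF, with 63.3, 84.8 and 46.3 there, 39.8, 16.1 and 34.3 in the null mutant, and 24.8, 18.5 and 54.1 in the double transformant. One double transformant array reached into the substitution range. The ndhF difference was 1.00 ± 0.39 (SE, limma adjusted p = 0.335, 95% interval 0.14 to 1.86) in the substitution mutant and -0.05 ± 0.39 in the null mutant. The subunit gene ndhE had 819, 732 and 700.0 in the substitution mutant, 898, 521 and 441 in the null mutant, and 685, 631 and 628 in the double transformant, with no overlap between the substitution mutant and the double transformant.

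Rubisco fixes carbon dioxide, and its large subunit is the product of rbcL. The rbcL signal was 1266, 692 and 1118 for the null mutant, 1003, 666 and 923 for the substitution mutant, and 646, 911 and 1143 in the double transformant. Its differences were 0.18 ± 0.26 and -0.04 ± 0.26 (SE). The acetyl-CoA carboxylase subunit gene accD, the protease subunit gene clpP and the envelope membrane protein gene cemA had differences between 0.02 and 0.04 in the null mutant and between -0.15 and 0.04 in the substitution mutant.

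**Figure D2:**
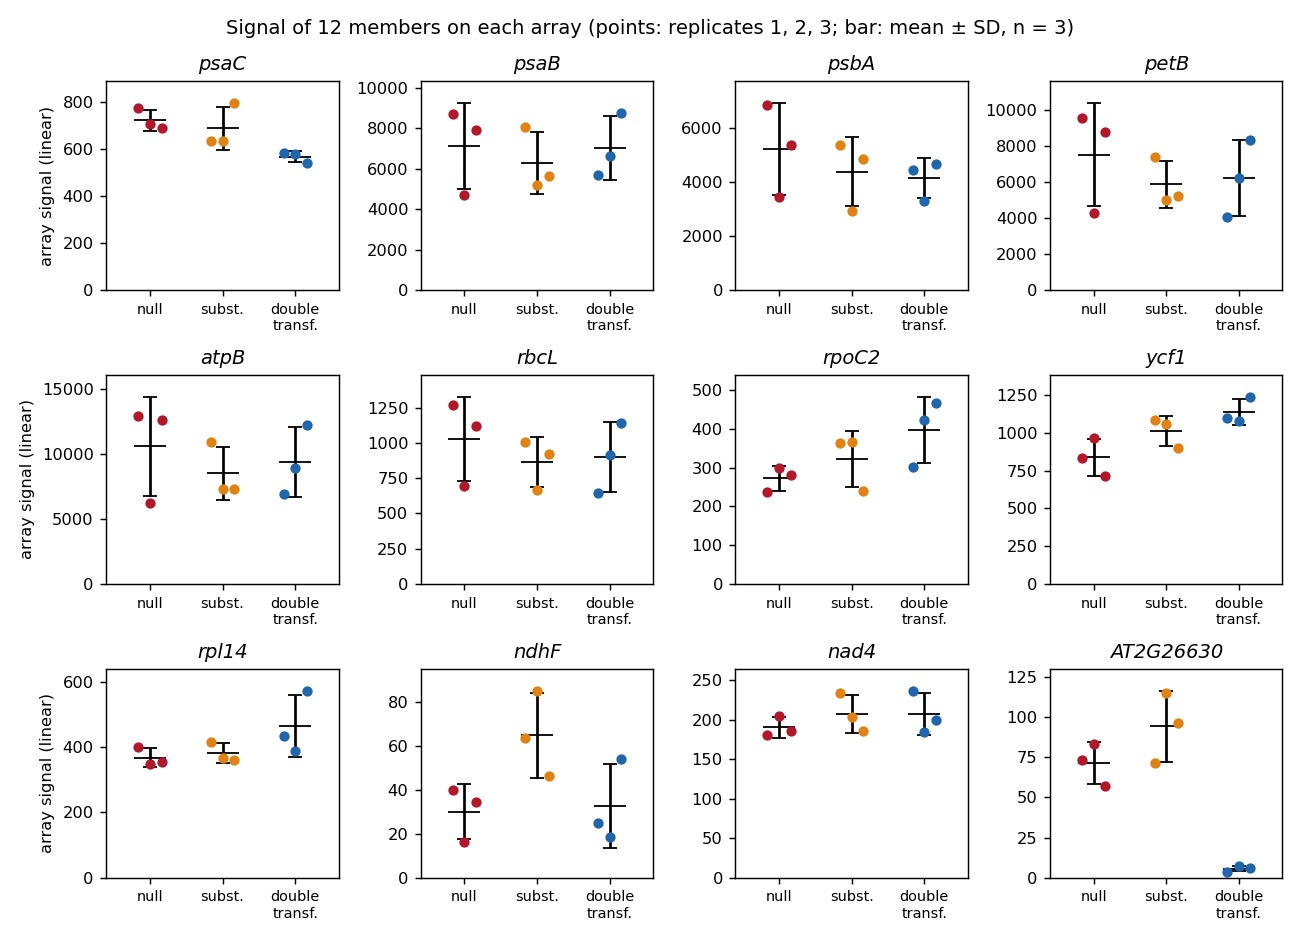
Linear array signal (vertical axes, each from 0) of 12 members on each of the 9 arrays, null mutant left, substitution mutant in the middle and double transformant right; points are the arrays and black bars the mean ± SD (n = 3). AT2G26630 is the member whose mutant arrays (57.1 to 115) stand far from the double transformant arrays (3.87 to 7.12), and the large signals of psaB, petB and atpB vary more within groups than between them.

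With all arrays, most genes of the plastid's own expression machinery had differences of the opposite sign to most genes of the photosynthetic complexes in the null mutant. Of the 25 members that encode ribosomal proteins, RNA polymerase subunits and the intron maturase matK, 23 had a negative difference there, with a median of -0.144, while 31 of the 46 members of the photosystems, cytochrome b6f, ATP synthase and NDH complexes had a positive one, with a median of 0.134. In the substitution mutant the counts were 18 of 25 negative (median -0.0997) and 28 of 46 positive (median 0.0470, or -0.00841 when arrays were centred on their medians). Over all probe sets 52.5% and 49.6% of the differences were positive and 47.5% and 50.4% negative. Among the 557 non-members with a mean signal of 1000 or more, 59.6% and 58.0% were positive and 40.4% and 42.0% negative. Members share arrays and were not tested as a group. Both counts rested on single arrays. The photosynthetic count ran from 21 (null mutant 1 left out) to 41 of 46 (null mutant 2 left out), and was 14 of 46 (median -0.157) with the arrays marked rpt left out, when 23 of the 25 expression members were negative. Without null mutant 2 the null mutant had 8 of the 20 ribosomal members negative (median 0.0797), without double transformant 3 likewise 8 of 20 (median 0.0271), against 19 of 20 with all arrays. Without null mutant 3 and double transformant 3 together, 13 of the 25 expression members were negative (median -0.0211) and 41 of the 46 photosynthetic members positive (median 0.189).

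The RNA polymerase subunit gene rpoC2 had 238, 300.2 and 280.5 on the null mutant arrays and 363, 366 and 240.3 on the substitution mutant arrays, against 302, 423 and 466 in the double transformant. The null mutant arrays lay below all double transformant arrays, and the difference was -0.52 ± 0.19 (SE, limma adjusted p = 0.334). Its fellow subunits rpoC1, rpoA and rpoB had -0.18, -0.21 and -0.04, and matK had 0.21. The 5 members of this role had medians of -0.182 for the null mutant and -0.0997 for the substitution mutant, and each median stayed negative when any 1 array was left out (between -0.207 and -0.0616, and between -0.155 and -0.0626).

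Among the ribosomal genes, rpl14 had 400.1, 348 and 353 for the null mutant, 416, 367 and 359.6 for the substitution mutant, and 434, 387 and 571 in the double transformant. Double transformant 3 was the highest array, and the difference of -0.32 ± 0.14 (SE) had an adjusted p of 0.443. The small-subunit gene rps15 had 201, 205 and 196 in the null mutant, below both the 242, 229 and 261 of the substitution mutant and the 227, 226 and 240.2 of the double transformant. Its difference was -0.20 ± 0.10 (SE, adjusted p = 0.500) in the null mutant against the double transformant.

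The plastid member with the smallest p in the null mutant was ycf1, which encodes a protein assigned to the import machinery of the inner envelope. It had 833, 964 and 716 on the null mutant arrays and 1083, 1058 and 899 on the substitution mutant arrays, against 1097, 1078 and 1235 in the double transformant. All null mutant arrays were lower than all double transformant arrays, and the substitution mutant overlapped both. The differences were -0.45 ± 0.14 (SE, limma adjusted p = 0.226) and -0.17 ± 0.14 (adjusted p = 0.715). Of all settings tried, the fit without null mutant 2 gave ycf1 its smallest adjusted p, 0.0832, at a difference of -0.55. The large reading frame ycf2 had signals between 22.2 and 62.4 with overlapping groups.

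**Figure D3:**
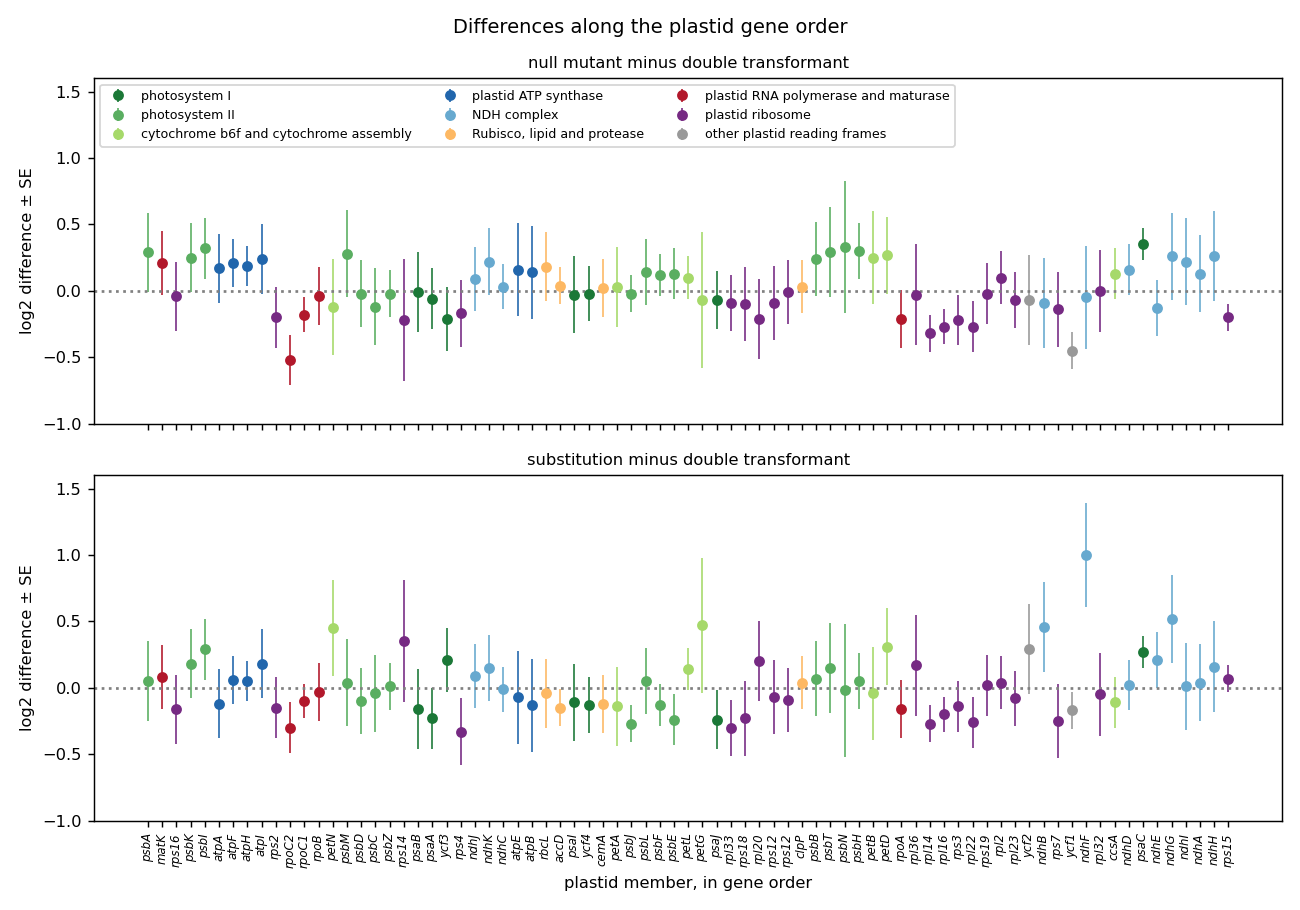
Log2 difference ± SE (vertical axes) of the 77 plastid members in gene order (horizontal axis), null mutant above and substitution mutant below, each minus the double transformant, coloured by role. The co-transcribed psbB, psbT, psbH, petB and petD lie between 0.24 and 0.30 in the null mutant, the rpoB to rpoC2 genes lie between -0.52 and -0.04, and most bars cross 0.

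Plastid genes that are transcribed together were set beside other pairs, from a textbook list of 11 groups written after the files were seen. Over the 9 arrays, with group means removed, the median correlation was 0.512 for the 102 pairs within these groups and 0.501 for the 2824 other plastid pairs. Longer groups give more pairs: 36 of the 102 came from the ribosomal group and 21 from the ndhH group, whose median was 0.294. The pooled median therefore leans on these long groups and does not describe the groups one by one. The groups differed among themselves. The pair atpB and atpE had 0.991, the group psaI, ycf4, cemA and petA a median of 0.907, psbD, psbC and psbZ 0.838, and psbB to petD 0.829. The ribosomal group from rpl23 to rpoA had a median of 0.0204 and ndhC, ndhK and ndhJ one of -0.0914, with ndhK and ndhJ at 0.960 to each other. These correlations share arrays and probe chemistry and are given as a description.

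Between arrays the plastid signals moved as a block, and this movement was wider than the differences between the groups' medians. The plastid members summed to 210040.1, 126939.9 and 190414 on the null mutant arrays and 180013, 139037 and 150788 on the substitution mutant arrays, against 139177, 160754 and 191082 in the double transformant. As a share of all signal these were 5.76, 3.92 and 5.27% for the null mutant, 5.12, 4.23 and 4.50% for the substitution mutant, and 4.25, 4.71 and 5.45% in the double transformant. The highest and lowest sums both belonged to the null mutant. In these whole plants, fewer cells of a type and less RNA per cell cannot be told apart.

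The same pattern held gene by gene. Null mutant 1 was the highest array for 33 of the 77 plastid members and null mutant 2 the lowest for 33, while double transformant 3 was the highest for 20. Highest over lowest array came to 1.94 in the median member, from 1.33 to 5.26. The median SD within groups was 0.326 on the log2 scale for the 46 plastid members with a mean signal of 1000 or more, against 0.178 for the 557 other probe sets as bright and 0.317 over all probe sets.

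Not every plastid member followed the block. The correlation with the median plastid profile over the 9 arrays, which includes the member itself, had a median of 0.778 and was 0.9 or more for 16 members and below 0 for 14. Closest were psbD (0.982), ycf4 (0.976), psaB (0.962) and psbC (0.962). Farthest were rpl36 (-0.584), petG (-0.566), rpl22 (-0.438) and rpoA (-0.438). The rpl36 signal was 553, 867 and 274 for the null mutant, 499.6, 469 and 868 for the substitution mutant, and 708, 546 and 364 in the double transformant. It was high where the block was low, on null mutant 2, and low on null mutant 3 and double transformant 3. The polymerase subunit gene rpoA gave 1129.7, 1588 and 990.4 for the null mutant, 1181, 1016 and 1648 for the substitution mutant, and 1707, 1162 and 1378 in the double transformant. Like rpl36, it had its highest null mutant signal on array 2 and its highest substitution signal on array 3.

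**Figure D4:**
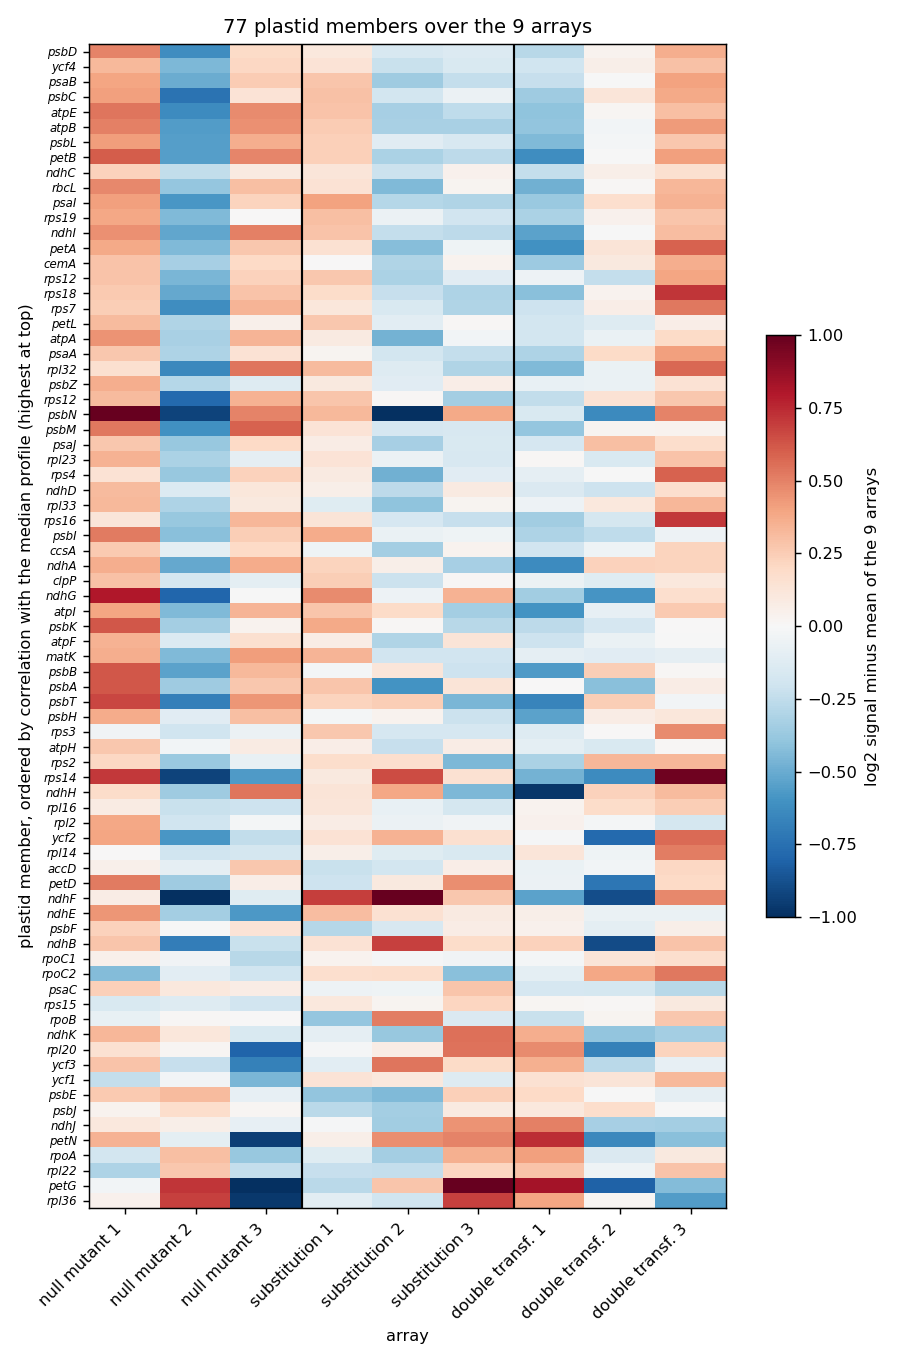
Log2 signal of each of the 77 plastid members (rows, ordered by correlation with the median plastid profile) on each of the 9 arrays (columns), minus the member's mean over the 9 arrays; red is above and blue below that mean. Most rows are red on null mutant 1, blue on null mutant 2 and red on double transformant 3. The 14 rows at the bottom, from rps15 (-0.0261) down to rpl36 (-0.584), have a correlation below 0 with the median profile, some of them close to 0.

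The nuclear genes of the green tissue that were measured followed the block in direction, though not in size on every array. In a list of nuclear photosystem, antenna and Rubisco genes, 9 of 58 were measured, and they summed to 52680.2, 29531 and 53749 for the null mutant, 41269, 32564 and 34569.8 for the substitution mutant, and 30622, 36832 and 41288 in the double transformant. Null mutant 2 was the lowest array here too. None of the 9 was called, 8 had a positive difference in the null mutant (median 0.354) and 5 in the substitution mutant (median 0.0575), and PSAN had the smallest p in the null mutant (0.62 ± 0.26, SE, limma adjusted p = 0.391). The part of green tissue or of array quality in the plastid values was not tested.

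Of 5004 other probe sets with 1 named gene and a mean signal of 50 or more, those closest to the median plastid profile over the 9 arrays were GAPC2 (r = 0.951), a glycolytic enzyme of the cytosol, RCA (0.951), the activase of Rubisco, AT1G17130 (0.947), AT1G21500 (0.933) and AT2G45180 (0.932). RCA had 7423, 4120.2 and 6826 for the null mutant, 6308, 4586 and 4902 for the substitution mutant, and 4837, 5606 and 8543 in the double transformant. The nuclear member AT2G26500, annotated as the petM subunit of cytochrome b6f, had 5414, 3750.2 and 5523 for the null mutant, 4521, 3274 and 4013 for the substitution mutant, and 3794, 4175 and 4165 in the double transformant. Its differences were 0.25 ± 0.21 and -0.05 ± 0.21 (SE).

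**Figure D5:**
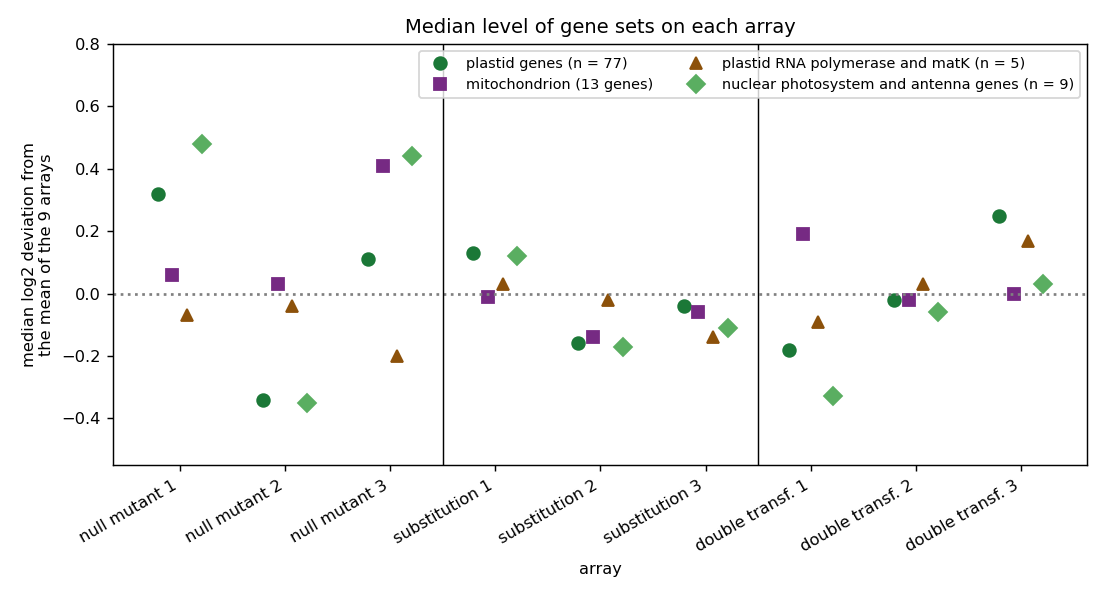
Median log2 deviation from the mean of the 9 arrays (vertical axis) for plastid members, mitochondrial members, the RNA polymerase and matK members and the nuclear photosystem and antenna genes, on each array (horizontal axis). The plastid and nuclear photosystem medians are low together on null mutant 2 (-0.34 and -0.35) and high together on null mutant 1 (0.32 and 0.48), while the mitochondrial median stays between -0.14 and 0.19 on all arrays but null mutant 3 (0.41).

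Mitochondrial members gave less to measure. Their summed signal was 783, 785 and 714 on the null mutant arrays and 769.7, 697 and 772 on the substitution mutant arrays, against 906, 709.5 and 756 in the double transformant, and 9 of the 13 had a mean signal under 50. None was called, and none had an unadjusted p under 0.05. The interval lay within 2-fold for 6 of the 13 for the null mutant and for 8 in the substitution mutant, so for the others these arrays could not show a 2-fold difference as absent. The medians were -0.0460 and -0.0371, and turned to 0.00738 and 0.0424 without double transformant 1. On null mutant 3 the median deviation was 0.41, yet the summed signal was the lowest of that group. The brighter members 244944_s_at, ccb382, nad4 and ccb452 correlated with the median mitochondrial profile at -0.445, -0.253, -0.0343 and 0.317.

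Complex I of the respiratory chain takes electrons from NADH. Its subunit gene nad4, the one of the 5 complex I members with a mean signal over 50, had 179.9, 205 and 186 on the null mutant arrays and 233, 203 and 185 on the substitution mutant arrays, against 236, 184 and 199.8 in the double transformant. The groups overlapped, and the differences were -0.11 ± 0.13 and 0.01 ± 0.13 (SE), with intervals from -0.40 to 0.18 and from -0.28 to 0.29. In the substitution mutant 3 of the 13 mitochondrial members (23.1%) did not overlap the double transformant, against 19.2% of all probe sets, which is close. All 3 lay wholly below it, as 8.60% of all probe sets did, a direction taken up after the values were seen. They were nad4L (9.06, 14.6 and 21.3 in the substitution mutant, against 23.8, 26.4 and 32.3 in the double transformant), nad9 (29.7, 32.2 and 27.3 in the substitution mutant, against 46.9, 38.3 and 37.7 in the double transformant) and the cytochrome c maturation gene ccb452, now ccmFC (76.0, 63.1 and 73.5 in the substitution mutant, against 87.9, 79.4 and 77.1 in the double transformant). Their differences were -0.77 ± 0.37, -0.41 ± 0.25 and -0.19 ± 0.14 (SE), with adjusted p-values of 0.446, 0.574 and 0.673.

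Cytochrome c maturation attaches haem to the c-type cytochromes. Its 4 members had medians of -0.309 and -0.329, and ccb382, now ccmFN1, gave 155, 183 and 86.8 for the null mutant, 120.1, 94.9 and 150.2 for the substitution mutant, and 138, 108 and 125 in the double transformant. The dimmer ccb203 and ccb206, now ccmFN2 and ccmB, had intervals from -1.73 to 0.59 and from -1.79 to 0.41 in the null mutant. The cytochrome oxidase subunit gene cox2 (24.2, 22.9 and 32.1 for the null mutant, 28.2, 22.6 and 15.0 for the substitution mutant, 14.7, 27.7 and 13.5 in the double transformant) overlapped between groups. So did the maturase gene matR, at 7.04 or below on every array, and orfX, now mttB. Probe sets most like the median mitochondrial profile were AT5G45590 (0.941), AT1G18390 (0.915), AT1G80180 (0.907), AT3G17450 (0.888) and AT4G31880 (0.886). Each had its highest signal on null mutant 3, where the profile itself is highest, which follows from how they were chosen.

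The one called member was AT2G26630, which RefSeq lists as a pseudogene of chromosome 2. It had 73.3, 82.9 and 57.1 on the null mutant arrays and 71.2, 115 and 96.1 on the substitution mutant arrays, against 3.87, 7.12 and 5.86 in the double transformant, where the signal lay near the offset of 4.03 added before log2. Every mutant array stood above every double transformant array. With the offset of 4.03 it rose by 2.96 ± 0.25 on the log2 scale (SE, n = 3 each, limma adjusted p = 0.000124) in the null mutant and by 3.33 ± 0.25 (adjusted p = 4.72e-05) in the substitution mutant. The size depends on the offset, since the double transformant signals lie close to it: with offsets of 1 and 64 the differences were 3.46 and 0.95 in the null mutant, and 3.85 and 1.17 in the substitution mutant. It was called in both under all 27 settings tried.

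No other nuclear member of the block was called. The AT2G26 genes beside it on the array had differences between -0.12 and 0.93 in the null mutant. AT2G26360 had the highest of these, with 16.6, 13.4 and 35.8 for the null mutant, 8.68, 13.9 and 11.8 for the substitution mutant, and 13.9, 9.37 and 4.44 in the double transformant (0.93 ± 0.41, SE, adjusted p = 0.426). AR781 had 393, 164 and 121 in the substitution mutant, 71.2, 127 and 98.3 in the null mutant, and 98.8, 83.3 and 114 in the double transformant. Substitution mutant 1 was far above the other arrays, and AR781 had a difference of 0.99 ± 0.35 (SE, adjusted p = 0.278). Of the 5 AT2G07 genes, AT2G07776 had 22.2, 24.5 and 26.2 for the null mutant, 17.4, 12.0 and 21.4 for the substitution mutant, and 11.0, 10.4 and 14.2 in the double transformant. Its null mutant arrays lay above all others, at 0.84 ± 0.30 (SE, adjusted p = 0.302), uncalled.

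The 45 unnamed members divided by their place in the numbering. All 32 numbered before AT2G07708, the stretch that holds the mitochondrial names, had a mean signal under 50, and their median differences were 0.0391 and 0.0768. The 3 among the plastid names had medians of -0.120 and -0.135, and the 10 numbered after atpH had -0.0690 and -0.160. The probe set 245038_at had 142, 449 and 213 on the null mutant arrays and 523, 269.5 and 445 on the substitution mutant arrays, against 446, 409 and 386 in the double transformant. Null mutant 2 lay above the double transformant arrays and the other null mutant arrays below them, and the difference was -0.78 ± 0.34 (SE, adjusted p = 0.427). Without null mutant 2 it was -1.23 and was called (adjusted p = 0.0450).

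The null mutant and the substitution mutant were also compared directly. No member was called, against 0.0396% of all probe sets, and 2 of the 90 plastid and mitochondrial members had an unadjusted p under 0.05, against 6.36% of all. One was ndhF, whose null minus substitution difference was -1.05 ± 0.39 on the log2 scale (SE, adjusted p = 0.719 by limma), and the other was rps15, at -0.27 ± 0.10 (adjusted p = 0.709). In both the groups did not overlap, as in 2 of the 90 (2.22%), against 11.7% of all probe sets. The 77 plastid members had a median of 0.0727, the 13 mitochondrial members 0.146 and all probe sets 0.0265. The plastid median was -0.0579 with null mutant 1 left out, 0.282 with null mutant 2 left out and -0.0939 with the arrays marked rpt left out, so its direction rests on single arrays. AT2G26630 differed by -0.37 ± 0.25 between the mutants (95% interval -0.93 to 0.18, adjusted p = 0.841).

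Nuclear genes whose products act on organelle RNA or complete organelle complexes were counted from lists, and none was called in any of the 3 comparisons. The sigma factors and phage-type RNA polymerases had 0 of 19 genes among the named probe sets. For plastid transcription and RNA-processing proteins 10 of 53 were measured, with medians of -0.131 for the null mutant and 0.0561 for the substitution mutant. CRR28, a pentatricopeptide repeat protein of plastid RNA editing, had the smallest p, with 58.9, 49.1 and 43.4 in the substitution mutant against 35.8, 31.7 and 30.6 in the double transformant (0.56 ± 0.20, SE, limma adjusted p = 0.290). Its editing sites include those of ndh transcripts. For mitochondrial RNA processing 3 of 49 were measured, with medians of -0.0519 and -0.0423, and for plastid import and division 2 of 22, with 0.117 and -0.0336.

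Of the nuclear respiratory genes 11 of 42 were measured, with medians of 0.0577 and 0.143. The smallest p-values belonged to genes of the iron-sulphur subunit of succinate dehydrogenase. SDH2-1 had 209, 181 and 183 on the null mutant arrays and 210.4, 199 and 192 on the substitution mutant arrays, against 159.7, 153 and 111 in the double transformant. Neither mutant overlapped the double transformant, and the differences were 0.44 ± 0.14 (SE, limma adjusted p = 0.250) and 0.51 ± 0.14 (adjusted p = 0.158). SDH2-2 had 153, 152 and 195 for the null mutant, 120.3, 130.2 and 134 for the substitution mutant, and 126, 111 and 99.3 in the double transformant, at 0.55 ± 0.14 (adjusted p = 0.126) in the null mutant.

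Markers of other tissues and states were sparsely measured: 2 of 15 for root, 3 of 14 for flower and pollen and 3 of 14 for senescence, with none called. The flower and pollen markers summed to 2.05, 2.07 and 11.3 for the null mutant, 2.28, 6.13 and 2.83 for the substitution mutant, and 21.8, 5.43 and 37.4 in the double transformant. All 3 had negative differences in both mutants, with medians of -1.01 and -0.872. The sums were highest on double transformant 3 and double transformant 1, where the plastid median deviation was 0.25 and -0.18, and lowest on null mutant 1, where it was 0.32. The root markers summed to between 3.17 and 15.5, with medians of -0.156 and -0.224, and the senescence markers to between 31.1 and 76.7, with medians of -0.125 and 0.0390. Among the senescence markers WRKY53 had 36.2, 16.2 and 14.9 in the substitution mutant, 12.3, 3.97 and 0.813 in the null mutant, and 2.00, 4.38 and 2.59 in the double transformant. Its substitution mutant arrays lay above all others, at 1.84 ± 0.47 (SE, limma adjusted p = 0.120), uncalled. Their part in the organelle values was not tested.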

How the data were processed

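The intensity values are linear MAS5 signals of single-colour ATH1 arrays as deposited; per the submitters' processing notes the tools were MAS5 and GCOS, and their versions were not given. The trimmed mean was 100.0 on every array, so arrays had been scaled alike before deposit, and depth in the sense of reads does not apply. Detection calls were not used. Groups came from the titles. Of 22810 probe sets, 64 controls were left out and 22746 tested. Signals were taken as log2(signal + 4.03), with an offset equal to percentile 20 of the whole table, which shrinks the differences of dim probe sets. All 9 arrays entered 1 fit in limma 3.58.1 (R 4.3.3) with an intensity trend; calls are Benjamini-Hochberg adjusted p under 0.05 over all probe sets. The fit was checked on simulated data. Signals of different probe sets are not on 1 scale, so levels were not compared between genes. Mean signal served to choose which members to name, to set apart bright probe sets and likeness candidates, and to count dim members. Sums and shares of signal lean on the brightest probe sets and were compared between arrays only.

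Members, gene lists and tests were chosen with earlier results of these data known. Named members were those called, in each role the 3 of highest mean signal and the 2 of smallest p in each mutant comparison, the 5 highest and 5 lowest differences per mutant comparison among members with a mean signal of 50 or more, up to 4 called or else 2 genes per nuclear list, and the 5 probe sets most like each organelle's median profile. Members shown for falling outside overlap, moving against the median profile or completing a role (ndhE, rps15, rpl36, rpoB, psaI, ycf4, AT2G07 genes and the like) were named after their values were seen. Replicate numbers recur across groups, but arrays that share a number deviated together only weakly (r from -0.0409 to 0.154), and no pairing was assumed. Alternatives were other offsets, a dim filter, other normalizations, priors and thresholds, array weights, blocks, left-out arrays and, added after the data were seen, the plastid median as a covariate.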

Additional observations from a re-analysis of the deposited data

How the results depend on the processing

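No plastid or mitochondrial member was called under any of the 26 alternatives in any of the 3 comparisons, including an adjusted p under 0.2; the smallest adjusted p was 0.0832 (ycf1, null mutant, without null mutant 2), 0.115 (ndhF, substitution mutant, array weights) and 0.291 (ycf1 between the mutants, without null mutant 2). AT2G26630 was called in both mutants under all 27 settings, at 0.95 to 3.46 (highest adjusted p 0.0152) and 1.17 to 3.85 (highest adjusted p 0.00993). The count of members called in the null mutant was 1 to 2 when 1 array was left out, the 2 arising without null mutant 2 through 245038_at. The median difference of mitochondrial members in the substitution mutant, -0.0371, lay between -0.196 (without substitution mutant 3) and 0.0424 (without double transformant 1) when 1 array was left out, and was -0.187 with both null mutant 3 and double transformant 3 left out; the cause was not tested. With 1 array left out, the plastid median of the null mutant spanned -0.110 to 0.215 and that of the substitution mutant -0.155 to 0.0938, without null mutant 2 and without double transformant 3 giving the highest values; between the mutants it spanned -0.0579 to 0.282. Leaving out the 3 arrays whose titles end in rpt gave -0.214, -0.0899 and -0.0939, and leaving out null mutant 3 and double transformant 3 gave 0.122, 0.0938 and 0.0138. With the plastid median as a covariate the 3 medians were 0.0235, 0.204 and -0.104. That covariate is made from the plastid members themselves, so this fit cannot show how firm the plastid results are. With the replicate block the counts of members called stayed at 1, 1 and 0, and the plastid medians at -0.00652, -0.0244 and 0.0727; over all probe sets the block gave 176, 321 and 7 calls, against 173, 170 and 9. Calls over all probe sets ran from 45 to 680, from 38 to 788 and from 0 to 48 over the settings. Among uncalled named members, 118 of 1653, 111 of 1654 and 110 of 1678 values took the other sign under an alternative. Of the 13 mitochondrial members 9, and all 32 unnamed members numbered before AT2G07708, had mean signals under 50.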
